A study of Rattus norvegicus with 20 samples.

Results

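The receptor complex for myelin inhibitors of axon growth and its ligands comprised 10 genes, listed by name with earlier results of these data known. On the receptor side they were Lingo1, Rtn4r, Rtn4rl1, Rtn4rl2, Ngfr and Tnfrsf19, and on the ligand side Rtn4, Mag, Omg and Mog. Mog was listed there as a myelin protein and is not among the ligands of the Nogo receptor named below. Every gene probe of the array whose annotation resolved to a member was taken, which gave 11 probes for the 10 genes, out of 41012 probes and 15351 named genes in all. Mog had 2 probes and each other gene had 1. The Lingo1 probe stands in the array files under the older symbol Lrrn6a and the Tnfrsf19 probe under RGD1564996. Both were matched only through synonyms in RefSeq's gene list, where their array accessions were not found, so the identity of these 2 probes is less certain than that of the other 9. All 11 probes were tested and none was saturated on any array.

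Myelin of the central nervous system carries proteins that stop growing axons. Nogo (the product of Rtn4), myelin-associated glycoprotein (Mag) and oligodendrocyte myelin glycoprotein (Omg) all bind the Nogo receptor, the product of Rtn4r, which is anchored to the neuronal membrane by a lipid and has no part inside the cell. It signals through partners that cross the membrane, Lingo1 together with the neurotrophin receptor p75 (Ngfr) or with TROY (Tnfrsf19), and the complex activates RhoA, which collapses the growth cone.

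The samples were pools of cortical neurons captured by laser from 10 rats aged 2 years after a stroke. The 4 groups were sprouting neurons at day 21, sprouting neurons at day 7, non-sprouting neurons at day 21 and non-sprouting neurons at day 7, with 5 animals per day and both cell types from each animal. All animals received 2 fluorescent conjugates of the retrograde tracer cholera toxin B at 1 site in the cortex beside the infarct, the second one 21 or 7 days after the first, and neurons were captured 7 days after the second. Days are separate cohorts, every group had a stroke, and which tracer combination defines each cell type and the strain of the rats are not given in the labels. Each pool held about 300 neurons of 1 animal and its RNA went through 2 rounds of T7 amplification, so a value is the level in 1 amplified pool. In such pools, fewer cells of a type and less RNA per cell cannot be told apart.

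Each animal's RNA pair was hybridised to 2 arrays with the dyes exchanged, a forward array with sprouting RNA in red and a dye-swap array with sprouting RNA in green. The mean of both arrays was 1 value per animal, and p-values therefore measure the spread between animals. The ratio is log2 of sprouting over non-sprouting signal throughout, and values are listed in the order of replicates 1 to 5. Spots well above background were 69.8% to 95.5% of gene spots in red and 20.8% to 95.2% in green, with the lowest green share on the dye-swap array of day 21 replicate 4. The dye-swap arrays of day 21 replicates 2 and 3 had green shares of 56.8% and 35.8%, and there too green carries sprouting RNA. On the forward arrays of day 7 replicates 2 and 4, where green carries non-sprouting RNA, it was 51.5% and 59.8%. The arrays of day 21 replicate 4 correlated at 0.0464 across probes, against 0.321 to 0.890 in the other 9 animals. All 12 neuron markers were tested, and so were 18 oligodendrocyte, 10 astrocyte, 12 microglia and 8 endothelial markers, so the pools carried measurable RNA of glial and vascular markers too.

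Sprouting and non-sprouting neurons were compared first, separately at each day. At day 21, Lingo1 and Tnfrsf19, both membrane-spanning partners of the Nogo receptor, averaged -0.012 ± 0.15 and -0.024 ± 0.17 (SD, n = 5 each) with both signs among the animals. At day 7 they lay above 0 in all 5 animals, by 0.22 ± 0.12 and 0.18 ± 0.12 (SD, n = 5 each), or 1.16-fold and 1.13-fold. The Nogo receptor itself, its 2 homologues and Ngfr averaged within 0.11 of 0 at both days. Of the ligand-side genes, Rtn4 lay below 0 in 4 of the 5 animals at day 21 and in 4 of 5 at day 7. Mag and Mog had no common direction at either day.

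**Figure D1:**
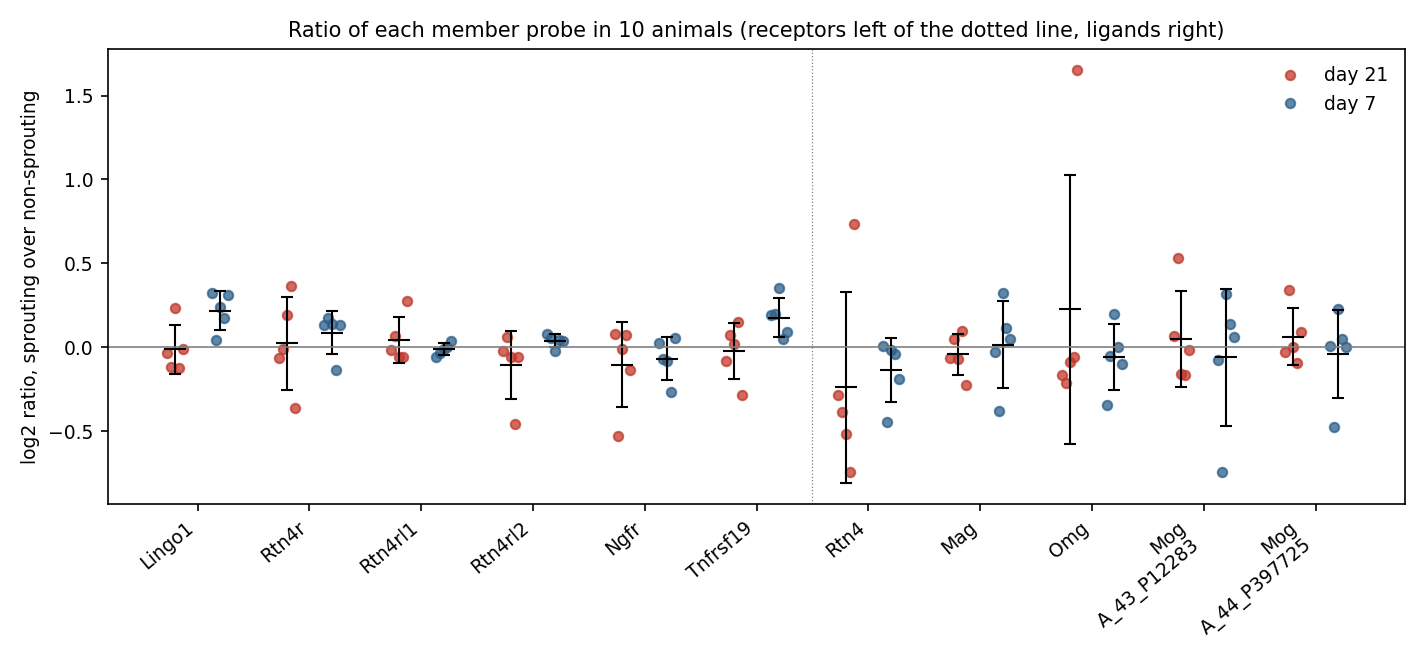
Log2 ratio of sprouting over non-sprouting signal for the 11 probes (vertical axis), 1 point per animal, day 21 left of day 7 at each gene, with the mean and SD as bars. Replicate 5 of day 21 stands at 1.65 for Omg and 0.73 for Rtn4, and all 5 day 7 points of Lingo1 and of Tnfrsf19 lie above 0.

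None of the 11 probes passed the adjusted p threshold of 0.05 in limma in the 6 comparisons made, which were the ratio at day 21, at day 7, its difference between days, its mean over days, and the level at day 21 against day 7 in each cell type. Over all 34231 probes tested the share that passed was 0% in each of them as well. At day 21, 0 of 11 probes had an unadjusted p under 0.05 (4.75% of all probes) and 0 of 11 had 1 sign in all 5 animals (6.26% of all probes). At an unadjusted p under 0.05 the day 7 ratio held 2 of the 11 probes, against 6.11% of all probes, and both lay above 0, against 3.39% of all probes. The same 2 probes were above 0 in all 5 day 7 animals, against 5.15% of all probes.

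The 6 receptor-side genes had a median ratio of -0.018 at day 21 and 0.063 at day 7, with 2 and 4 of them above 0. The 4 ligand-side genes had a median of 0.0042 at day 21 and -0.060 at day 7. The 13551 named genes had medians of -0.0011 at day 21 and -0.0024 at day 7.

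Lingo1 encodes a membrane protein with leucine-rich repeats that joins the Nogo receptor to its signalling partner. It had ratios of -0.036, -0.12, 0.23, -0.12 and -0.011 at day 21 and of 0.32, 0.042, 0.24, 0.17 and 0.31 at day 7. The days overlapped through day 21 replicate 3, which was high, and day 7 replicate 2, which was near 0. Forward arrays gave -0.17, -0.28, 0.25, 0.0032 and 0.0041 at day 21 and dye-swap arrays 0.10, 0.038, 0.21, -0.25 and -0.026. At day 7 forward arrays gave 0.18, 0.019, 0.15, 0.11 and 0.18, and dye-swap arrays gave 0.47, 0.065, 0.33, 0.24 and 0.45. All 10 day 7 arrays therefore lay above 0, which held for 1 of the 11 probes and for 1.01% of all probes.

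The dye-swap value of Lingo1 exceeded the forward value in each of the 5 day 7 animals, with means of 0.31 and 0.13. This order of the 2 dye orientations in all 5 animals held for 2 of the 11 probes, Lingo1 and Rtn4rl2, and for 10.2% of all probes. At day 21 the 95% interval of the Lingo1 ratio was -0.14 to 0.12 (p = 0.844, adjusted p = 0.991 in limma). In limma the day 7 ratio of Lingo1 was 0.22 (SE 0.058, 95% interval 0.09 to 0.35, p = 0.00351, adjusted p = 0.667). The exact two-sided sign-flip test over the 5 animals gave p = 0.0625, the smallest that 5 animals can give. Its probe was well above background in sprouting RNA on 7 of 10 arrays at day 21 and 10 of 10 at day 7, and in non-sprouting RNA on 10 of 10 and 8 of 10. The day 21 arrays without such a sprouting signal were the dye-swap arrays of replicates 2, 3 and 4, which had low green shares. The day 7 arrays without such a non-sprouting signal were the forward arrays of replicates 2 and 4, also with low green shares.

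**Figure D2:**
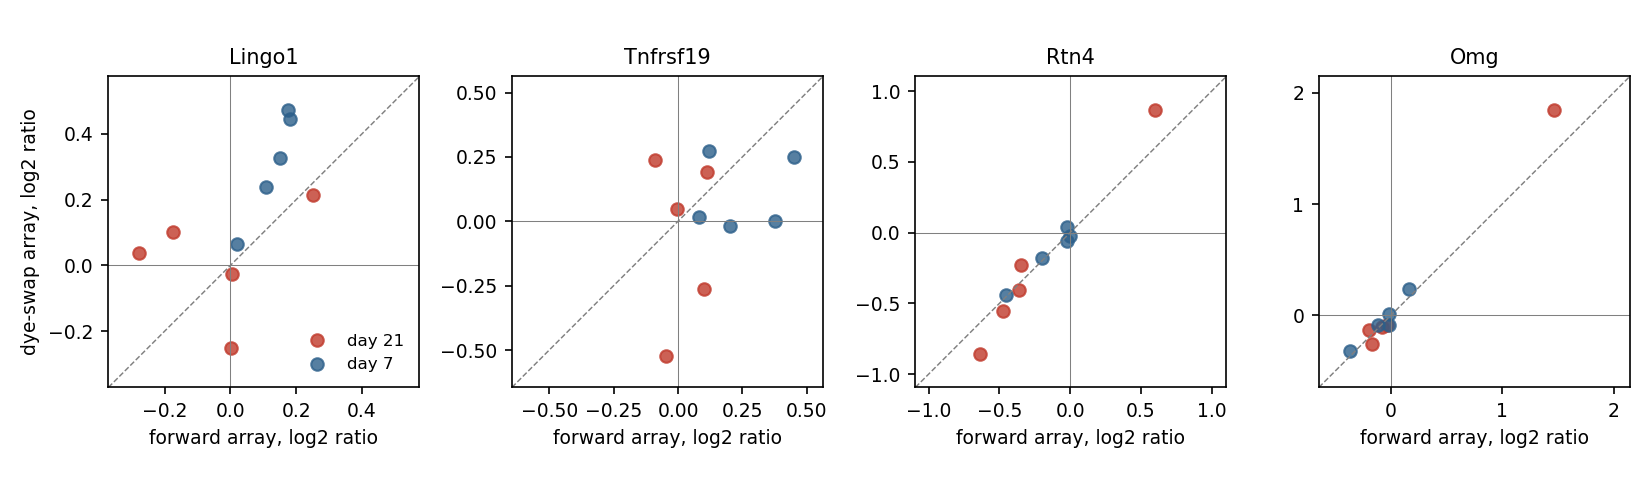
Log2 ratio on the dye-swap array (vertical axis, turned to sprouting over non-sprouting) against the forward array (horizontal axis) of the same animal for Lingo1, Tnfrsf19, Rtn4 and Omg, with the line of equal values dashed. Rtn4 and Omg lie along the line, the day 7 points of Lingo1 lie above it, and the points of Tnfrsf19 scatter around it.

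Lingo1 and Tnfrsf19 are the 2 members with an unadjusted p under 0.05 at day 7, and their promoter windows are shown for that reason. RefSeq's promoter table for the GRCr8 assembly matched 6 of the 10 genes (Lingo1, Rtn4r, Rtn4rl2, Tnfrsf19, Mag and Omg), with no entry for Rtn4, Ngfr, Rtn4rl1 and Mog. Each window runs from 250 bases before to 50 bases after the annotated start, 5′ to 3′ on the gene's strand, and capitals mark every CG dinucleotide. The Lingo1 window is chr8:65924117-65924416 and the Tnfrsf19 window is chr15:39334517-39334816, both on the minus strand.
Lingo1: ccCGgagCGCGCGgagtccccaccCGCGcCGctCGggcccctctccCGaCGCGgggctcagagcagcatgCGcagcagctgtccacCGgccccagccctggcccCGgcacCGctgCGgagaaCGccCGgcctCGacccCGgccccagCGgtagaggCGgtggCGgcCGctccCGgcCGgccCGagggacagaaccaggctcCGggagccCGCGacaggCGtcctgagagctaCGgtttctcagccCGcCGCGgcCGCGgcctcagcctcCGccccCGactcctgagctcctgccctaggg
Tnfrsf19: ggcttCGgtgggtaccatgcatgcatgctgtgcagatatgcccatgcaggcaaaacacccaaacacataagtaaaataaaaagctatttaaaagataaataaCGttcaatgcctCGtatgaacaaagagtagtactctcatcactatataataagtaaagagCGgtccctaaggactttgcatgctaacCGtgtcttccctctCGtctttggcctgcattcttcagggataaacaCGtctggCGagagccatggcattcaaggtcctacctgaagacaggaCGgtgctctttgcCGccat

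The Lingo1 window had 78% GC with 39 CG dinucleotides and the Tnfrsf19 window had 45.3% GC with 10, where the median of the 33469 windows of the table was 51.7% and 7. The window of Rtn4r had 78% GC with 48 CG dinucleotides, that of Rtn4rl2 had 74% with 35, that of Mag had 67.7% with 6 and that of Omg had 44.7% with 4. Both strands were searched for motifs. The GC box, searched as GGGCGG, was held by 33.1% of all windows, and the E-box, searched as CANNTG, by 72.1%. The TATA motif, searched as TATAAA, was held by 14.2% of all windows, and the motif CCAAT by 37.5%. Lingo1 held 1 GC box and 1 E-box, and Tnfrsf19 held no match to any of the 4 motifs. Rtn4r held 6 GC boxes and 3 E-boxes, Rtn4rl2 held 2 GC boxes and Mag held 2 E-boxes. Omg held 3 E-boxes and 1 match to CCAAT. On the receptor side the windows of Lingo1, Rtn4r and Rtn4rl2 were thus alike in GC share, and that of Tnfrsf19 was lower. A match is a description of the letters only.

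Tnfrsf19 encodes TROY, a receptor of the tumour necrosis factor family that can take the place of p75 in the complex. It had ratios of -0.082, 0.074, 0.021, 0.15 and -0.28 at day 21 and of 0.19, 0.20, 0.35, 0.049 and 0.092 at day 7. Every day 7 animal was above 0, and the days overlapped. Forward arrays gave 0.10, -0.091, -0.0048, 0.11 and -0.045 at day 21 and dye-swap arrays -0.26, 0.24, 0.048, 0.19 and -0.52. The forward arrays of day 7 gave 0.38, 0.12, 0.45, 0.08 and 0.20, and dye-swap arrays gave 0.0016, 0.27, 0.25, 0.017 and -0.018. On the dye-swap arrays 3 of the 5 day 7 values were therefore near 0, and those of replicates 2 and 3 were not. At day 21 the ratio of Tnfrsf19 had p = 0.713 (adjusted p = 0.979 in limma). In limma the day 7 ratio was 0.18 (SE 0.063, p = 0.0184, adjusted p = 0.794), and the exact two-sided sign-flip test gave p = 0.0625. The probe was well above background in sprouting RNA on 6 of 10 arrays at day 21, against 10 of 10 at day 7. The day 21 arrays without such a signal were the dye-swap arrays of replicates 1, 3 and 4 and the forward array of replicate 2.

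Rtn4r encodes the Nogo receptor. Its ratios were -0.067, -0.0092, 0.19, 0.36 and -0.36 at day 21 and 0.13, 0.17, 0.14, -0.14 and 0.13 at day 7. The day 21 animals spread to both sides of 0, and at day 7 replicate 4 lay below it while the other 4 lay close together above it. Forward arrays gave 0.059, 0.05, 0.25, 0.18 and -0.49 at day 21 and dye-swap arrays -0.19, -0.068, 0.13, 0.55 and -0.24. For day 7 the forward arrays gave 0.22, 0.17, 0.20, -0.091 and 0.19, and dye-swap arrays gave 0.051, 0.18, 0.07, -0.18 and 0.072. Both arrays of an animal had 1 sign in 8 of the 10 animals. The means were 0.023 ± 0.28 at day 21 and 0.087 ± 0.13 at day 7 (SD, n = 5 each), both smaller than the spread between animals.

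Rtn4rl1 and Rtn4rl2 encode homologues of the Nogo receptor, of which Rtn4rl2 binds Mag. Rtn4rl1 had ratios of -0.016, 0.068, -0.055, -0.057 and 0.27 at day 21 and of -0.057, -0.033, -0.0094, 0.00032 and 0.039 at day 7. The 5 day 7 animals spread around a mean of -0.012 with an SD of 0.036, at percentile 3.77 of all probes. Its forward arrays gave 0.045, 0.079, -0.022, -0.16 and 0.26 at day 21 and -0.028, -0.023, 0.021, -0.0034 and 0.013 at day 7. Its dye-swap arrays gave -0.076, 0.056, -0.089, 0.043 and 0.29 at day 21 and -0.086, -0.043, -0.04, 0.004 and 0.064 at day 7. Day 21 replicate 5 was high on both of its arrays. At day 21 the 95% interval of its ratio ran from -0.063 to 0.15, and at day 7 from -0.12 to 0.094.

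Rtn4rl2 had ratios of -0.022, 0.062, -0.055, -0.46 and -0.057 at day 21 and of 0.078, 0.053, -0.025, 0.044 and 0.04 at day 7. Only day 21 replicate 4 was further than 0.1 from 0, and its dye-swap array is the one with the fewest spots above background. Forward arrays gave -0.14, 0.013, -0.15, -0.25 and -0.06 at day 21 and dye-swap arrays 0.10, 0.11, 0.043, -0.67 and -0.054. At day 7 forward arrays gave -0.12, -0.12, -0.20, -0.068 and -0.073, and dye-swap arrays gave 0.28, 0.23, 0.15, 0.16 and 0.15. Its day 7 value thus had 1 sign on all forward arrays and the other sign on all dye-swap arrays, and its small mean of 0.038 ± 0.038 (SD, n = 5) was the balance of both. At day 21 it averaged -0.11 ± 0.20 (SD, n = 5), with an adjusted p of 0.917 in limma.

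Ngfr encodes p75, which carries the signal of the complex into the cell. Its ratios were 0.081, -0.53, -0.013, 0.075 and -0.14 at day 21 and 0.023, -0.067, -0.082, -0.27 and 0.057 at day 7. Day 21 replicate 2 was low, and both days held both signs. Forward arrays gave -0.03, -0.71, -0.14, 0.16 and -0.068 at day 21 and dye-swap arrays 0.19, -0.35, 0.11, -0.014 and -0.21. The forward arrays of day 7 gave 0.028, -0.11, -0.027, -0.55 and 0.035, and dye-swap arrays gave 0.017, -0.022, -0.14, 0.014 and 0.08. The day 7 value of replicate 4 came from its forward array alone. The means were -0.10 ± 0.25 at day 21 and -0.067 ± 0.13 at day 7 (SD, n = 5 each). Their adjusted p-values in limma were 0.917 and 0.924. The Ngfr probe was well above background in sprouting RNA on 6 of 10 arrays at day 21, against 9 of 10 at day 7. The day 21 arrays without such a signal were the dye-swap arrays of replicates 1, 3 and 4 and the forward array of replicate 1.

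Rtn4 encodes Nogo, which neurons as well as oligodendrocytes make. Its ratios were -0.29, -0.38, -0.52, -0.75 and 0.73 at day 21 and 0.01, -0.45, -0.013, -0.041 and -0.19 at day 7. At day 21 4 animals lay clearly below 0 and replicate 5 lay as far above it, and at day 7 only replicates 2 and 5 were away from 0. Forward arrays gave -0.35, -0.36, -0.48, -0.63 and 0.60 at day 21 and dye-swap arrays -0.23, -0.40, -0.55, -0.86 and 0.87. For day 7 the forward arrays gave -0.02, -0.45, 0.00052, -0.021 and -0.20, and dye-swap arrays gave 0.041, -0.44, -0.027, -0.061 and -0.18. The gap between the 2 arrays of an animal averaged 0.0886, at percentile 13.6 of all probes, whereas the SD between day 21 animals was at percentile 97.3. On the dye-swap array of day 21 replicate 4 the sprouting channel was not well above background.

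Rtn4 averaged -0.24 ± 0.57 at day 21 and -0.14 ± 0.19 at day 7 (SD, n = 5 each). In limma p was 0.187 at day 21 and 0.439 at day 7 (adjusted p = 0.917 and 0.925). It was below 0 in 8 of the 10 animals, which held for 1 of the 11 probes and for 9.32% of all probes. Without day 21 replicate 5 the other 4 animals averaged -0.48 ± 0.20 (SD, n = 4), so 1 animal moved the day 21 mean by a factor of over 1.5. The limma fit without it gave p = 0.000301 for day 21 (adjusted p = 0.627). Replicate 5 was the only day 21 animal above 0 for Rtn4, so this p depends on the choice to leave it out. Over all 34231 probes, 2552 had an unadjusted p under 0.05 at day 21 in that fit, against 1626 with all animals. Rtn4 and Omg were the 2 of the 11 probes that lay below 0 on both arrays of at least 4 of the 5 day 21 animals, against 4.14% of all probes. The other tested reticulon genes, Rtn1, Rtn2 and Rtn3, had a median ratio of -0.037 at day 21 and -0.15 at day 7.

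Omg encodes a lipid-anchored glycoprotein of myelin and of neurons that binds the Nogo receptor. Its ratios were -0.16, -0.21, -0.09, -0.06 and 1.65 at day 21 and -0.34, -0.052, 0.20, 0.0007 and -0.10 at day 7. Day 21 replicate 5 stood far above the other 9 animals, on its forward array (1.46) and on its dye-swap array (1.84). The other 4 day 21 animals gave -0.19, -0.17, -0.077 and -0.033 on forward arrays and -0.13, -0.26, -0.10 and -0.087 on dye-swap arrays. At day 7 forward arrays gave -0.36, -0.018, 0.16, -0.015 and -0.11, and dye-swap arrays gave -0.32, -0.086, 0.24, 0.016 and -0.089. The day 21 mean of 0.23 ± 0.80 (SD, n = 5) turned to -0.13 ± 0.069 (SD, n = 4) without replicate 5, and the day 7 mean was -0.060 ± 0.20 (SD, n = 5).

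In day 21 replicate 5 the level of Omg, as log2 channel intensity, was 9.5 in sprouting and 7.84 in non-sprouting neurons. In the other 4 day 21 animals it was 10.6 to 11.1 in sprouting and 10.8 to 11.2 in non-sprouting neurons. Both pools of that animal were therefore below the others, the non-sprouting pool by more. Its Rtn4 level was 10.2 in sprouting and 9.47 in non-sprouting neurons, and the non-sprouting level was below the range of 10.2 to 11 of the other 4 animals. The median ratio of the 12 neuron markers in that animal was -0.53, against -0.10 to 0.048 in the other 4, and its 2 arrays correlated at 0.871. The part of the neuron markers in these values was not tested.

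Mag encodes a sialic acid-binding adhesion protein on the innermost myelin wrap, which binds the Nogo receptor. Its ratios were -0.063, 0.048, -0.068, 0.094 and -0.22 at day 21 and -0.029, -0.38, 0.33, 0.12 and 0.05 at day 7. Day 7 replicates 2 and 3 lay on opposite sides of 0, and the days overlapped. Forward arrays gave -0.042, -0.056, -0.13, -0.041 and -0.18 at day 21 and dye-swap arrays -0.084, 0.15, -0.0068, 0.23 and -0.26. The forward arrays of day 7 gave -0.14, -0.37, 0.27, 0.13 and 0.024, and dye-swap arrays gave 0.087, -0.39, 0.38, 0.10 and 0.077. The means were -0.042 ± 0.12 at day 21 and 0.016 ± 0.26 at day 7 (SD, n = 5 each), both within the spread between animals.

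Mog encodes a glycoprotein of the outer myelin surface and marks mature oligodendrocytes. Its brighter probe, A_43_P12283, had ratios of 0.065, 0.53, -0.16, -0.16 and -0.017 at day 21 and of -0.076, -0.74, 0.32, 0.14 and 0.064 at day 7. Replicate 2 was high at day 21 and low at day 7, and each day held both signs. Forward arrays gave 0.03, 0.53, -0.18, -0.21 and -0.0033 at day 21 and dye-swap arrays 0.10, 0.53, -0.14, -0.12 and -0.031. For day 7 the forward arrays gave -0.0038, -0.64, 0.33, 0.14 and 0.024, and dye-swap arrays gave -0.15, -0.85, 0.30, 0.14 and 0.10. Both arrays had 1 sign in all 10 animals. The second probe, A_44_P397725, ranged from -0.094 to 0.34 at day 21 and from -0.48 to 0.23 at day 7, and its dye-swap value of day 21 replicate 4 was missing. Over the 10 animals the 2 probes correlated at r = 0.962, where they share every library. Their means at day 21 were 0.051 ± 0.29 and 0.063 ± 0.17, and at day 7 -0.060 ± 0.41 and -0.038 ± 0.26 (SD, n = 5 each).

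The ratios of Mog followed those of other oligodendrocyte genes from animal to animal. The median ratio of 18 oligodendrocyte markers (such as Mbp, a major myelin protein), which do not include Mag or Mog, was -0.073, 0.23, -0.059, -0.094 and 0.15 at day 21 and -0.068, -0.67, 0.26, 0.013 and 0.13 at day 7. Over the 10 animals, r was 0.917 and rho 0.782 for the first Mog probe and 0.949 and 0.903 for the second. Without day 7 replicates 2 and 3, the 2 animals farthest from the median of the markers, r was 0.738 and 0.815 (n = 8). For Mag, r was 0.71 with all 10 animals and -0.11 without those 2, so the relation of Mag rests on them. On the receptor side, r for Rtn4rl1 was 0.41 with all 10 animals and 0.726 without those 2. For Ngfr it was -0.32 and -0.70. The other receptor-side genes lay between -0.51 and 0.43 without those 2 animals. A relation of the size of Mog's without them was therefore not particular to Mog. The points share libraries and arrays, and these values are given as a description.

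**Figure D3:**
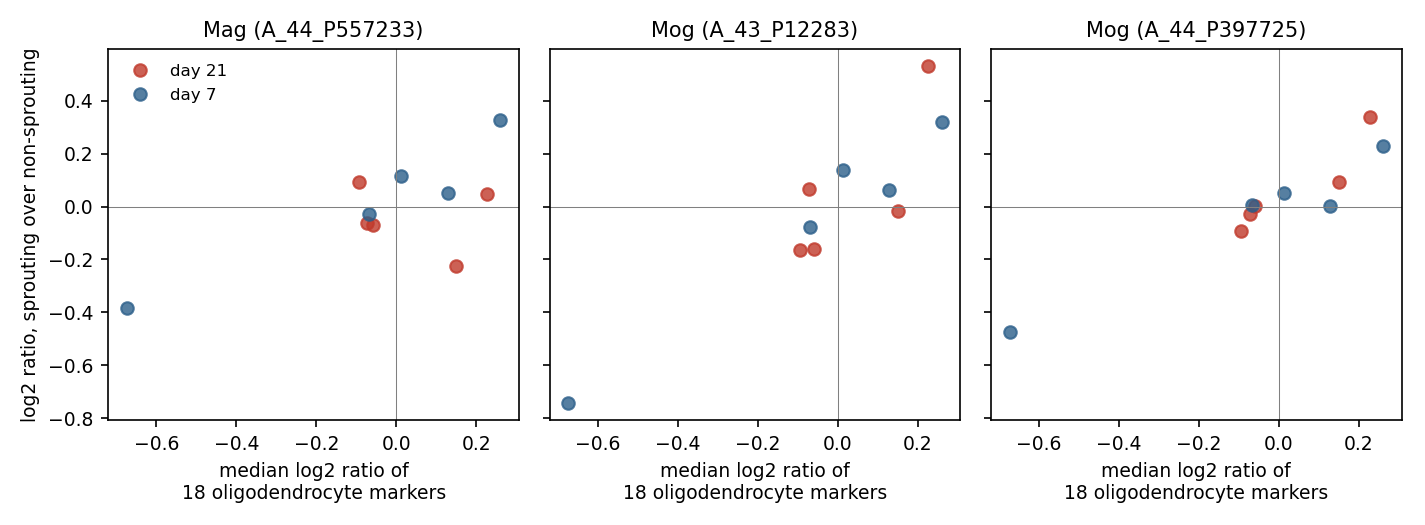
Log2 ratio of Mag and of the 2 Mog probes (vertical axis) against the median log2 ratio of 18 oligodendrocyte markers (horizontal axis), 1 point per animal, day 21 in red and day 7 in blue. The Mog points run from lower left, at day 7 replicate 2, to upper right, with r = 0.917 and 0.949, and the Mag points do so only through day 7 replicates 2 and 3.

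Summed over the 18 markers, linear intensity in sprouting neurons ranged over animals from 40752 to 69361 at day 21 and from 35203 to 63498 at day 7. In non-sprouting neurons it ranged from 27634 to 63299 at day 21 and from 42110 to 63899 at day 7. The ranges overlapped in both cell types, and 8 of 18 markers in sprouting and 13 of 18 in non-sprouting RNA were well above background on all 20 arrays. The part of oligodendrocyte RNA in the values of Mag and Mog was not tested.

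The days were compared next, first for the ratio. Lingo1 and Tnfrsf19 had lower ratios at day 21 than at day 7 on average, by a difference of -0.23 (SE 0.082) for Lingo1 and of -0.20 (SE 0.089) for Tnfrsf19. In limma the unadjusted p was 0.0181 for Lingo1 and 0.0479 for Tnfrsf19, and the adjusted p was 0.921 for both, so neither passed the test. When the days were exchanged among the 10 animals in an exact two-sided permutation test, p was 0.0317 for Lingo1 and 0.0476 for Tnfrsf19, where 252 splits allow no p under 0.00794. These 2 of the 11 probes had an unadjusted p under 0.05, against 4.13% of all probes, and both differences lay below 0, against 2.45% of all probes. The comparison uses the same day 7 values that are given above, and is not independent of them.

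The differences of the other 9 probes lay between -0.14 for Rtn4rl2 (p = 0.136, adjusted p = 0.921 in limma) and 0.29 for Omg (p = 0.402, adjusted p = 0.922). Without day 21 replicate 5 the difference was -0.072 for Omg and -0.35 for Rtn4 (p = 0.0155, adjusted p = 0.889 in limma), against -0.10 for Rtn4 with all animals. That replicate was the only day 21 animal above 0 for either gene, so the p without it depends on that choice. The median difference was -0.10 over the 6 receptor-side genes and 0.026 over the 4 ligand-side genes, against -0.0025 over all named genes. Averaged over both days, Lingo1 had a ratio of 0.10 (p = 0.0298, adjusted p = 0.765 in limma) and was the only 1 of the 11 probes with an unadjusted p under 0.05, against 6.46% of all probes. This mean comes from the day 7 ratio of 0.22, as the day 21 ratio was -0.012. Its unadjusted p in limma stayed under 0.05 in 17 of 23 alternatives. It was 0.475 with median centring in place of loess and 0.367 with forward arrays alone.

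Scans fall into 5 batches, and only 1 of them holds both days (day 21 replicate 1 with day 7 replicates 4 and 5). Within it the difference was -0.28 for Lingo1 and -0.15 for Tnfrsf19. Some of the 25 alternatives, such as other filters, leave the estimate as it is. Over all 25 the difference kept an unadjusted p under 0.05 in 23 for Lingo1 and in 14 for Tnfrsf19. That of Tnfrsf19 did not without day 21 replicates 1, 3 or 5 (p = 0.0926, 0.0606 and 0.104), without day 7 replicates 1, 2 or 3 (p = 0.0760, 0.0796 and 0.117) or with the scan batch as a fixed block (p = 0.140).

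The level in each cell type was then compared between day 21 and day 7, as log2 channel intensity. In non-sprouting neurons the level of Lingo1 was 7.61, 7.64, 7.53, 7.53 and 7.63 at day 21, against 7.07, 6.95, 7.22, 7.20 and 7.12 at day 7. Every day 21 pool lay above every day 7 pool, which held for 1 of the 11 probes and for 1.4% of all probes. In sprouting neurons it was 7.58, 7.52, 7.76, 7.41 and 7.62 at day 21, against 7.39, 6.99, 7.46, 7.37 and 7.44 at day 7. Here the groups overlapped, through the highest day 7 pools and day 21 replicate 4. At day 7 each sprouting pool lay above the non-sprouting pool of its animal, as the ratios show.

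**Figure D4:**
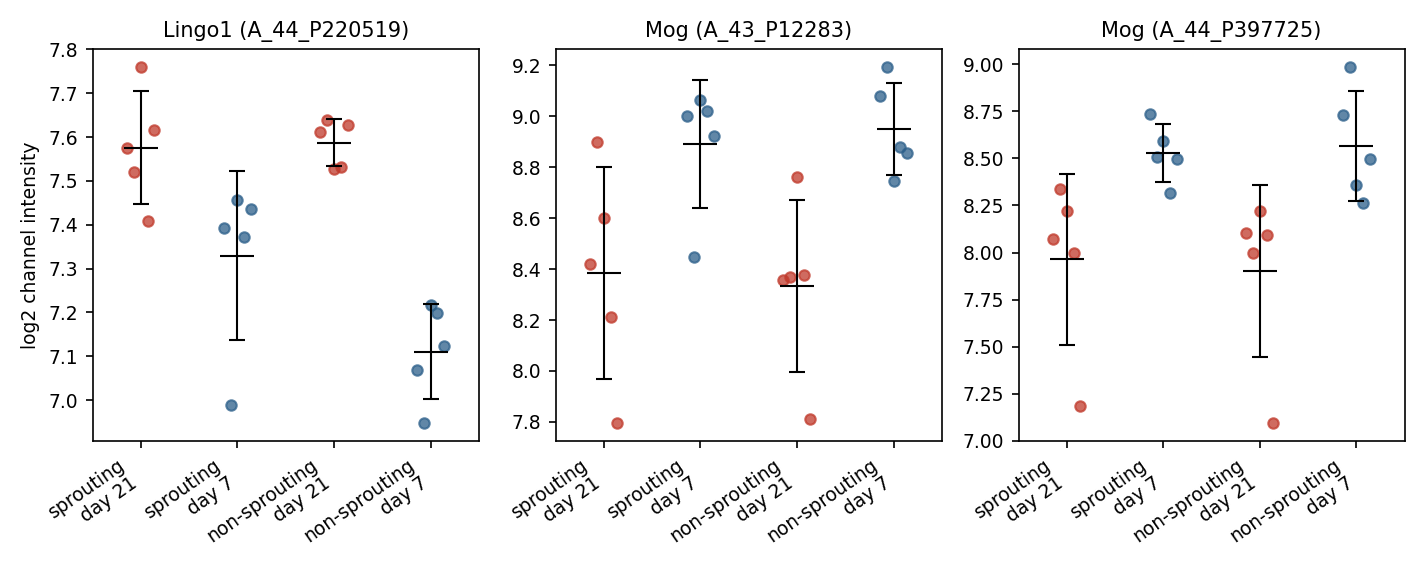
Log2 channel intensity (vertical axis) of Lingo1 and the 2 Mog probes, 1 point per animal, for sprouting and non-sprouting neurons at day 21 and day 7, with the mean and SD as bars. The 5 non-sprouting day 21 points of Lingo1 lie between 7.53 and 7.64, all above the day 7 points, and both Mog probes have their lowest points in day 21 replicate 5.

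The level of Lingo1 in non-sprouting neurons averaged 7.59 ± 0.054 at day 21 and 7.11 ± 0.11 at day 7 (SD, n = 5 each). The difference was 0.48 (SE 0.090, 1.39-fold, p = 0.000281, adjusted p = 0.115 in limma). The exact permutation gave p = 0.00794, the smallest that these 10 animals can give. In sprouting neurons the level averaged 7.58 ± 0.13 at day 21 and 7.33 ± 0.19 at day 7 (SD, n = 5 each). That difference was 0.25 (SE 0.12, p = 0.0678, adjusted p = 0.349 in limma, exact permutation p = 0.0238). Within the scan batch that holds both days the differences were 0.45 in non-sprouting and 0.17 in sprouting neurons. The difference between the cell types is that of the ratio between days, given above (adjusted p = 0.921 in limma). Without day 21 replicate 1 the adjusted p of the non-sprouting difference was 0.04998, just under the threshold, and 587 probes passed in that fit. This animal is the only day 21 animal in the scan batch that holds both days. Without it no batch holds both days, so day and scan batch cannot be told apart there. With the scan batch as a fixed block the adjusted p in limma was 0.499 for the non-sprouting difference. The sprouting difference then had an unadjusted p of 0.425. The median difference over all probes was -0.070 in non-sprouting and -0.072 in sprouting neurons.

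Both Mog probes had lower mean levels at day 21 than at day 7 in both cell types, without passing the test. In sprouting neurons A_43_P12283 had 8.42, 8.90, 8.60, 8.21 and 7.79 at day 21, against 9.0, 8.45, 9.06, 9.02 and 8.92 at day 7. In non-sprouting neurons it had 8.36, 8.37, 8.76, 8.38 and 7.81 at day 21, against 9.08, 9.19, 8.74, 8.88 and 8.86 at day 7. Day 21 replicate 5 was the lowest pool in both cell types, and the days overlapped through day 7 replicate 2 in sprouting and through replicates 3 of both days in non-sprouting neurons. The difference was -0.51 (SE 0.20, p = 0.0299, adjusted p = 0.281 in limma) in sprouting and -0.62 (SE 0.17, p = 0.00388, adjusted p = 0.145 in limma) in non-sprouting neurons. The exact permutation gave p = 0.0476 for the sprouting and 0.0159 for the non-sprouting level.

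The second Mog probe, A_44_P397725, ranged from 7.19 to 8.34 at day 21 and from 8.32 to 8.74 at day 7 in sprouting neurons, a difference of -0.57 (p = 0.0164, adjusted p = 0.241 in limma). In non-sprouting neurons it ranged from 7.09 to 8.22 at day 21 and from 8.26 to 8.98 at day 7, a difference of -0.67 (SE 0.22, p = 0.0132, adjusted p = 0.203 in limma). In the second comparison every day 21 pool lay below every day 7 pool, which held for 1 of the 11 probes and for 4.62% of all probes. Without day 21 replicate 5 the sprouting difference was -0.36 for the first probe (p = 0.0615) and -0.37 for the second (p = 0.0103), and the non-sprouting difference was -0.49 and -0.47. Within the scan batch that holds both days the 2 probes gave -0.55 and -0.33 in sprouting and -0.51 and -0.28 in non-sprouting neurons. Of the 18 oligodendrocyte markers, 14 in sprouting and 16 in non-sprouting neurons also had a lower mean at day 21, with medians of -0.23 and -0.28, and 1 (Enpp2) and 2 (Olig2 and Sox10) of them with an unadjusted p under 0.05. Over the 13551 named genes, 8732 in sprouting and 8639 in non-sprouting neurons had a lower mean at day 21 too. Of these, 1721 in sprouting and 1686 in non-sprouting neurons had an unadjusted p under 0.05 in limma. The median over all named genes was -0.10 in sprouting and -0.099 in non-sprouting neurons, so lower levels at day 21 were not particular to oligodendrocyte genes.

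At an unadjusted p under 0.05 the sprouting level held 2 of the 11 probes, both of Mog, against 15.6% of all probes. The non-sprouting level held 3, Lingo1 and both of Mog, against 16% of all probes. The 2 Mog probes were below at that threshold in both cell types, against 8.31% of all probes. The levels of the other 8 probes overlapped between days in both cell types. Day 21 replicate 5 stood apart for Rtn4rl1, with 7.44 in sprouting and 7.16 in non-sprouting neurons, against 8.66 to 9.15 and 8.72 to 9.20 in the other 4 day 21 animals.

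Other genes of the pathway were described through a list of 61 genes, of which 56 were tested. No gene of the list passed the adjusted threshold in limma. At an unadjusted p under 0.05, 0 genes lay above and 1 below 0 at day 21 (median of the list -0.011), and 5 lay above and 2 below at day 7 (median 0.016). Over the 13551 named genes these counts were 216 above and 366 below at day 21 and 450 above and 367 below at day 7. For the difference between days, 0 genes of the list lay above and 3 below 0 (median -0.046), against 202 above and 285 below over all named genes.

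The 5 genes of the list above 0 at day 7 were Gna12, Trio, Prkca, Prkcb and Cfl1. Gna12, a G protein subunit, had a ratio of 0.0020 ± 0.081 at day 21 and 0.12 ± 0.036 at day 7 (SD, n = 5 each). Its day 7 value had p = 0.0074 (adjusted p = 0.707 in limma). Trio, a guanine nucleotide exchange factor, had -0.017 ± 0.11 at day 21 and 0.15 ± 0.12 at day 7 (SD, n = 5 each, day 7 adjusted p = 0.775 in limma). The protein kinase C genes Prkca and Prkcb had 0.073 and 0.18 at day 7, with p = 0.0406 and 0.0443 (adjusted p = 0.814 for both in limma). The fifth gene, Cfl1, an actin-severing protein, had 0.048 at day 21 and 0.21 at day 7 (p = 0.0436, adjusted p = 0.814 in limma). It did not have 1 sign in all animals and, like Rtn3, was named after its values were seen. Myl9, a myosin light chain, had -0.40 ± 0.39 at day 21 and 0.12 ± 0.39 at day 7 (SD, n = 5 each, day 21 adjusted p = 0.917 in limma). The 3 genes with a difference between days were Myl9 (-0.52), Gna12 (-0.12) and Trio (-0.17), with an adjusted p of 0.921 each in limma.

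Among the 15 tested genes for other receptors and partners, the 9 for antagonists and modifiers of the complex and the 4 for synthesis of gangliosides, which Mag binds, 0 had an unadjusted p under 0.05 for the ratio at either day. RhoA itself (Rhoa) had -0.044 at day 21 and 0.054 at day 7, and its effector kinases Rock1 and Rock2 had ratios of 0.084 and -0.11 at day 21, with -0.0079 and -0.10 at day 7, with no unadjusted p under 0.05. Lingo2, a homologue of Lingo1, had a ratio of -0.064 at day 21 and 0.026 at day 7, without a p under 0.05 at either day. Lgi1 and Crtac1, secreted antagonists of the Nogo receptor, had ratios of -0.020 and 0.026 at day 21 and of -0.049 and 0.13 at day 7. Rtn1, a reticulon found in neurons, had -0.036 ± 0.18 at day 21 and -0.15 ± 0.085 at day 7 (SD, n = 5 each, day 7 adjusted p = 0.811 in limma). Rtn3 had -0.037 at day 21 and -0.21 at day 7 (day 7 p = 0.0474, adjusted p = 0.818 in limma).

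Ratios of markers of other cell types varied between animals as well. The median ratio of the 12 microglia markers was -0.017, -0.068, -0.048, 0.0096 and -0.075 at day 21 and 0.25, -0.24, 0.12, 0.19 and 0.092 at day 7. Tyrobp, a microglial signalling adaptor, had -0.034 ± 0.11 at day 21 and 0.42 ± 0.51 at day 7 (SD, n = 5 each, day 7 adjusted p = 0.791 in limma), and C1qa, a complement gene, had -0.36 ± 0.25 at day 21 (SD, n = 5, adjusted p = 0.917 in limma). Day 7 replicate 2, which had the lowest Lingo1 ratio of its day, was also the day 7 animal with a microglia median below 0. The part of microglial RNA in the ratio of Lingo1 was not tested.

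All 10 astrocyte markers lay above 0 at day 21 (median 0.093) and 3 of 10 at day 7 (median -0.027), and Gja1, an astrocyte gap junction gene, had 0.20 ± 0.12 at day 21 (SD, n = 5, adjusted p = 0.917 in limma). Fgfr3, also of this list, had 0.025 ± 0.043 at day 21 and 0.075 ± 0.034 at day 7 (SD, n = 5 each, day 7 adjusted p = 0.811 in limma). All its day 7 animals lay above 0, from 0.027 to 0.11. Of the 8 endothelial markers 7 lay below 0 at day 21 (median -0.18) and 4 at day 7 (median -0.016). Vwf, a clotting factor gene of endothelium, had -0.29 ± 0.16 at day 21 (SD, n = 5, adjusted p = 0.917 in limma). The neuron markers had medians of -0.085 at day 21 and -0.055 at day 7, and Nefl, a neurofilament gene, had -0.36 ± 0.42 at day 21 (SD, n = 5, adjusted p = 0.917 in limma).

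The 5 genes whose ratios over the 10 animals were most like those of Lingo1, out of 13530 named genes without a missing value, were Fstl4 (r = 0.923), Eml5 (0.913), Dennd2d (0.899), Ankrd33b (0.899) and Cebpg (0.877). Their ratios were -0.024, -0.075, -0.12, 0.0073 and -0.062 at day 21 and 0.084, 0.055, 0.21, 0.14 and 0.22 at day 7. They were chosen for this likeness, and the animals share libraries with Lingo1, so the values are a description.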

How the data were processed

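Members and lists were chosen with earlier results of these data known. Images were quantified with Agilent Feature Extraction 9.1.3.1, per the submitters' processing notes and the file headers. Per the file headers, deposited spot intensities (mean signal and background) are linear. The deposited log10 ratio of red over green processed signal served as an alternative, as did the authors' deposited log2 ratios, whose normalization the sources used here do not give. Another 20 columns next to those were left out.

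In limma 3.58.1 (R 4.3.3, data.table in version 1.17.8) the background was corrected with normexp (offset 50) and each array by loess, with control spots at weight 0. Outlier spots (11 to 4088 per array) were set to missing and spots of a probe averaged. Tested probes, 34231 of 41012, had a signal well above background in 1 cell type on each array of 3 or more animals of a day. Ratios of both arrays were averaged per animal and fitted with lmFit and eBayes over both days, with Benjamini-Hochberg adjustment. Levels are log2 intensities after Aquantile scaling between arrays. Names come from RefSeq's gene list for GRCr8, matched on accession, symbol or synonym. The fit was tested on simulated data.

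Every member probe was named. For lists, the brightest probe per gene was counted, and genes with an unadjusted p under 0.05 and 1 sign in all animals of the contrast were named, at most 5 per list. The number of animals limits the precision.

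Alternatives covered background correction, normalization, filters, dye orientation, array weights, scan batch, each animal left out and the replicate number as a block. Same-numbered animals of the days are not paired: their deviations correlated at -0.18 to 0.045.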

Additional observations from a re-analysis of the deposited data

Results flagged for a closer look

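In each group of 5 animals the gap between the highest or lowest animal and its neighbour was set against the range of all 5. This was done over 66 groups of member ratios and levels. In 10 groups 1 animal lay far from the rest, where chance picks out about 1 in 20 of independent groups. These groups share animals, arrays and the 2 Mog probes, and each ratio comes from 2 of the levels. The count of 10 can therefore not be set against chance. For the ratio these were Omg in day 21 replicate 5 (1.65, others -0.21 to -0.06), Rtn4rl2 in day 21 replicate 4 (-0.46, others -0.057 to 0.062) and Rtn4r in day 7 replicate 4 (-0.14, others 0.13 to 0.17).

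For the level in sprouting neurons they were Rtn4rl1 in day 21 replicate 5 (7.44, others 8.66 to 9.15), Lingo1 in day 7 replicate 2 (6.99, others 7.37 to 7.46) and the Mog probe A_43_P12283 in day 7 replicate 2 (8.45, others 8.92 to 9.06). For the level in non-sprouting neurons all 4 were in day 21 replicate 5. They were Rtn4rl1 (7.16, others 8.72 to 9.20), Rtn4rl2 (7.48, others 6.65 to 6.87), Omg (7.84, others 10.8 to 11.2) and the Mog probe A_44_P397725 (7.09, others 8.0 to 8.22).

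The ratio differed between day 21 and day 7 at an unadjusted p under 0.05 for Lingo1 (-0.23, exact permutation p = 0.0317) and Tnfrsf19 (-0.20, exact permutation p = 0.0476), and neither passed adjustment over all probes in limma (adjusted p = 0.921).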

How the results depend on the processing

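The count of probes past an adjusted p of 0.05 in limma was 0 in all 6 comparisons, with 1626 probes at an unadjusted p under 0.05 at day 21, 2091 at day 7, 1414 for the difference, 2210 for the mean, 5326 for the sprouting and 5475 for the non-sprouting level. Without background correction it was 1 for day 7 and 1 for the mean, with the authors' deposited log2 ratios 1 for the mean, with the scan batch as a random block 1 for the mean, and with array weights 1 for day 7 and 1 for the mean. With the 20 arrays entered singly and the animal as a random block it was 2 for day 21, 13 for day 7, 1 for the difference and 8 for the mean, and with dye-swap arrays alone 134 for the mean. Leaving out 1 animal gave 0 to 1 for day 7 (1 without day 7 replicate 5), 0 to 279 for the sprouting level and 0 to 587 for the non-sprouting level, both highest without day 21 replicate 1. Over the alternatives that tested the same probes, the unadjusted count ranged from 914 (no background correction) to 4650 (dye-swap arrays alone) at day 21 and from 1556 (without day 7 replicate 1) to 3851 (dye-swap arrays alone) at day 7. It ranged from 564 (median centring in place of loess) to 2209 (scan batch as a fixed block) for the difference and from 1737 (without day 21 replicate 3) to 6984 (median centring) for the mean. For the levels it ranged from 3856 to 6968 in sprouting and from 3095 to 7327 in non-sprouting neurons. Without day 21 replicate 5 it was 2552 at day 21 and 3739 for the mean. The causes were not tested.

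With the replicate block the count stayed 0 for the difference and both levels, and the difference was -0.23 for Lingo1 (p = 0.0171) and -0.20 for Tnfrsf19 (p = 0.0553, no longer under 0.05), with numbers that pair no animals. Of 1394 member values under alternatives, 1374 stayed within 1 SD of the reported value and 20 moved by more. The sign differed from the reported one in 116 of them, and in 0 of the 199 whose reported value had an unadjusted p under 0.05. Part of these counts was fixed in advance. Other filters and Aquantile scaling cannot move a ratio estimate, and leaving out an animal of 1 day cannot move the ratio of the other day. The counts therefore do not measure how stable the values are. The adjusted threshold was passed by 1 of the 1394 values, Lingo1 in non-sprouting neurons without day 21 replicate 1 (adjusted p = 0.04998 in limma). In that fit no scan batch holds both days, and with the scan batch as a fixed block the adjusted p was 0.499. The day 7 ratio of Lingo1 ranged from 0.13 to 0.42 and that of Tnfrsf19 from 0.10 to 0.60, both highest with Feature Extraction's own log ratio. For Lingo1 the day 7 ratio had p = 0.0819 in limma with forward arrays alone. For Tnfrsf19 it had p = 0.335 with dye-swap arrays alone and 0.0798 without day 7 replicate 3. The differences of Lingo1 and Tnfrsf19 between days ranged from -0.34 to -0.14 and from -0.78 to -0.13. Lingo1's had p = 0.105 with forward arrays alone and 0.180 with Feature Extraction's ratio. That of Tnfrsf19 had p = 0.140 with median centring, 0.103 with arrays entered singly and 0.280 with dye-swap arrays alone. Signals not well above background limit Lingo1 and Tnfrsf19 in sprouting RNA at day 21, where 3 and 4 of 10 arrays lacked a clear signal. Most of these were dye-swap arrays, with sprouting RNA in green. The part of the green channel in this was not tested.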
